A study of Mus musculus with 6 samples.

Results

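The genes described here lie in a cluster on mouse chromosome 12 named for its eIF1A-like copies, which make up 7 of its 9 members. The members were chosen by symbol from a list of 9 genes of this cluster, and all 9 were found among the 24028 genes of the count table. The list was drawn up from the difference between induced and uninduced libraries, so the members' own differences between these groups are given as a description, with no test. The libraries come from 1 clonal C2C12 line (a mouse myoblast line) that carries MMH, a codon-altered transgene joining the homeodomain part of mouse Dux to the part of human DUX4 behind its homeodomains, under doxycycline control and puromycin selection. Induced cultures (n = 3) received 2 µg/ml doxycycline, and uninduced cultures (n = 3) of the same clone, which carry the same transgene, received none. The series description gives 18 h of treatment and the sample protocol 36 h. No culture with doxycycline but without the transgene was analysed here, so drug and transgene cannot be told apart.

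eIF1A is a small protein that binds the small ribosomal subunit, helps it to scan a messenger RNA for the start codon, and leaves when eIF5B joins the large subunit. Beside the dispersed eIF1A genes, the mouse carries a group of eIF1A-like copies whose transcripts are known from the cleavage-stage embryo, where Dux is active at the onset of zygotic transcription. Dux and DUX4 are double-homeobox transcription factors.

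The 9 members spanned 807 kb of GRCm38 chromosome 12, from Gm8300 at 87514316 to 87518265 to Gm5039 at 88320122 to 88321762. The label of the group holds for 7 of the members and not for the other 2. Gm8300, Gm21319, BB287469, Gm2016, Gm2022, Gm5662 and Gm5039 each had a GENCODE M21 coding sequence of 435 bases of the same length as that of Eif1a and could be compared with it base by base, whereas the count table describes Gm1995 and Gm7104 as pseudogenes of REX1, an RNA exonuclease. Gm5039 is called an eIF1A pseudogene in the table, but its GENCODE model had an open reading frame of 435 bases with 0 internal stop codons, as had the other 6.

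The start of the coding sequence is shown as an example of the resemblance on which the cluster is named. Bases 1 to 90 follow, 5′ to 3′, from GENCODE M21 on GRCm38. Capitals mark bases that differ from Eif1ax, the X-linked eIF1A gene. Eif1a is not shown, so the capitals do not tell which bases only the cluster has. Gm5662 was identical to Gm8300 over this stretch, and Gm2016 and Gm2022 were identical to BB287469.
Gm8300: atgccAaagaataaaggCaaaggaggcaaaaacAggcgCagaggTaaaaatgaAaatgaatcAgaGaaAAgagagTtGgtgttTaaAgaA
Gm21319: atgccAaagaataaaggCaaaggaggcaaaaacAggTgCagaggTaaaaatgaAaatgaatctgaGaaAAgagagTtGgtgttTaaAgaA
BB287469: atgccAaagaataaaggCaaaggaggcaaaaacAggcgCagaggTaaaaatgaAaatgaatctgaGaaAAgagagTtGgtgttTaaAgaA
Gm5039: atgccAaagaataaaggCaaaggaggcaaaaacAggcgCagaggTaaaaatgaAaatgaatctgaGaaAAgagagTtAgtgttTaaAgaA
Eif1ax: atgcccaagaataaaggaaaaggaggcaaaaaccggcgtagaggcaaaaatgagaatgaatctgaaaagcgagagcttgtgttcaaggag

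Most of the capitals fall at the same places in the members shown. Over the whole coding sequence, the 21 pairs among the 7 eIF1A-like members were 96.6% to 99.1% identical, that is 4 to 15 of 435 bases differed. The closest pair was Gm2016 and Gm5662. In bases, all 7 were nearer to Eif1a, the eIF1A gene of another chromosome, with 93.6% to 94.9% identity, than to Eif1ax, with 83.7% to 85.1%. In amino acids the difference was small. Of the 145 codons, 7 to 12 encoded another amino acid than in Eif1a and 8 to 14 another than in Eif1ax, against 2 to 12 between members. Gm21319 differed from each of these genes in 10 amino acids and Gm5039 in 8, and Eif1a and Eif1ax differed from each other in 2.

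**Figure D1:**
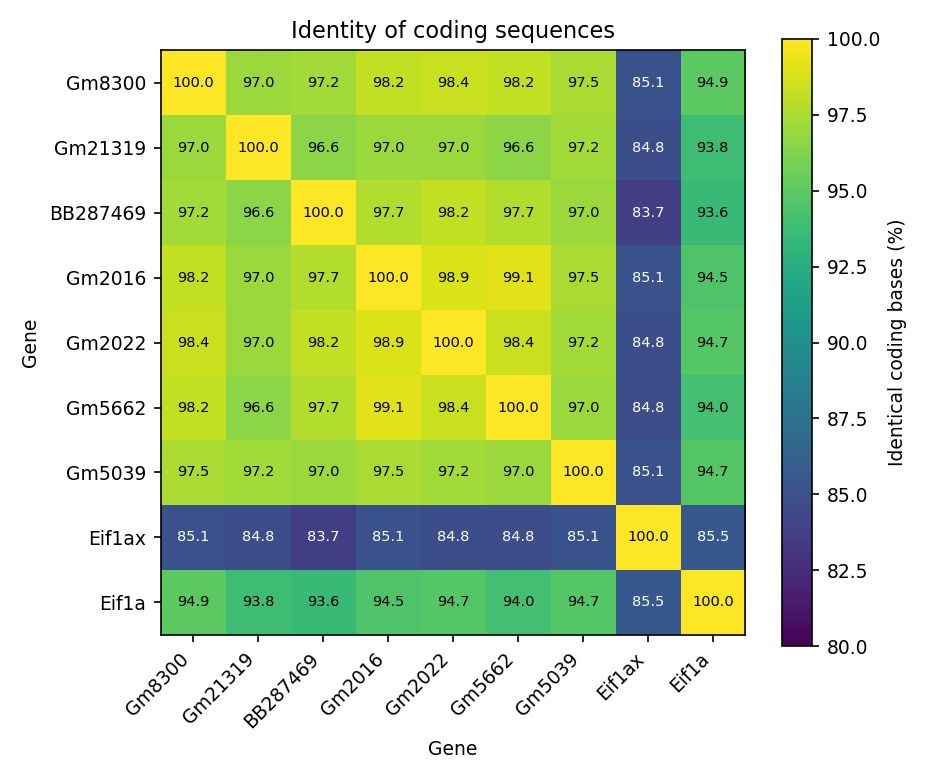
Identical coding bases, in percent of 435, for each pair of the 7 eIF1A-like members and the Eif1ax and Eif1a genes outside the cluster. Members are 96.6% to 99.1% identical to each other, 93.6% to 94.9% to Eif1a and 83.7% to 85.1% to Eif1ax.

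RefSeq promoter windows, 250 bases before to 50 after the start, were at hand for Gm21319 and BB287469 of the 9 members. They are shown because both hold the human DUX4 form of the double-homeobox motif, searched as TAAT, any 2 bases and AATCA. Capitals mark that match, which lies on the opposite strand and reads TAATTCAATCA there. The windows are GRCm38.p6 chr12:87775706-87776005, minus strand, for Gm21319, and chr12:87816327-87816626, plus strand, for BB287469.
Gm21319: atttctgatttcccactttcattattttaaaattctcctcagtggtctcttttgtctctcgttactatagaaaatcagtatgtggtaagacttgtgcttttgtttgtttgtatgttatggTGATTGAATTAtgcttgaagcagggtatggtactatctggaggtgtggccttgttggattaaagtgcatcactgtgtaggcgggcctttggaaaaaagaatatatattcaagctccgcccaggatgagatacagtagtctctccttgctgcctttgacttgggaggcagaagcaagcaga
BB287469: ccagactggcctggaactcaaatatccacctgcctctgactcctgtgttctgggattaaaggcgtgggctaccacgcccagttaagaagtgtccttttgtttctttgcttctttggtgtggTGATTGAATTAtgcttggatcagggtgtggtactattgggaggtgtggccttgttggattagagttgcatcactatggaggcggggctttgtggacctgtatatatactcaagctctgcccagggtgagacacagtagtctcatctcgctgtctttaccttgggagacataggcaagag

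The match began 130 bases before the start in Gm21319 and 129 bases before it in BB287469. On both strands of all 32851 RefSeq promoter windows, the DUX4 form was found in 115, or 0.350%. The mouse Dux form, searched as TGATT, any base and AATCA, was in 11 windows, or 0.0335%, and in neither of these 2. A TATAAA sequence was in 13.6% of all windows and in neither of these. Other spellings of a TATA element were not searched, and both windows shown hold the run tatatat. The absence of TATAAA therefore does not show that they lack such an element. The windows aligned over 311 positions with 69.8% identity, and their longest shared run was the 23 bases ggaggtgtggccttgttggatta. A match says that these letters are present and shows no binding. Only exact matches were counted. The match TAATTCAATCA departs from the mouse Dux form only in having A, not G, after its leading T. The transgene carries the homeodomain part of mouse Dux, and which form its protein binds was not tested.

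In every library the members were counted, and all 9 passed the filter on low counts. Because a gene can pass that filter through its induced counts alone, passing is no evidence of expression without doxycycline. Values are CPM, the usual rate of counts relative to library size, with library sizes scaled by TMM, a method that aligns the bulk of genes between libraries. In every member each induced library lay above each uninduced library, as did 41.5% of the 12969 genes tested. Fitted log2 fold changes (induced over uninduced, edgeR, standard errors from the fit) ran from 6.63 to 8.60, with a median of 7.24, beside a median of -0.01 over all tested genes. A log2 fold change of at least 6.63 was reached by 216 tested genes, or 1.67%, and the rule itself put the members there.

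BB287469 had 2224, 2435 and 2325 CPM in the 3 induced libraries, against 16.3, 15.8 and 14.0 CPM in the 3 uninduced libraries. The lowest induced library lay far above the highest uninduced library, and the log2 fold change was 7.24 ± 0.06 (SE). It averaged 2328 ± 106 CPM in induced and 15.4 ± 1.21 CPM in uninduced cells (SD, n = 3 each).

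Gm5039, the copy described as a pseudogene, was at 1583, 1732 and 1676 CPM in induced libraries, against 5.27, 5.31 and 4.72 CPM in uninduced libraries. The groups lay far apart. Its log2 fold change of 8.35 ± 0.06 (SE) was the highest of the 7 eIF1A-like members.

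Gm2016, Gm2022 and Gm5662 had the lowest fold changes of the cluster. Gm2016 had 1475, 1623 and 1550 CPM in induced libraries, against 16.4, 13.8 and 14.2 CPM in uninduced libraries, a log2 fold change of 6.71 ± 0.06 (SE). Gm2022 had 1376, 1528 and 1417 CPM in induced libraries, against 15.0, 15.0 and 13.6 CPM in uninduced libraries (6.63 ± 0.06). Gm5662 had 1330, 1487 and 1417 CPM in induced libraries, against 16.1, 13.7 and 12.3 CPM in uninduced libraries (6.65 ± 0.08). In all 3 genes the lowest induced library stood far above the highest uninduced one, and their fold changes were closer to each other than to that of any other member.

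Gm8300, the first gene of the cluster, stood at 1346, 1453 and 1417 CPM in induced libraries, against 10.2, 10.0 and 8.95 CPM in uninduced libraries, with a log2 fold change of 7.17 ± 0.06 (SE). Gm21319 had 349, 372 and 360 CPM in induced libraries, against 1.77, 1.59 and 1.15 CPM in uninduced libraries (7.90 ± 0.08). In both genes the groups were far apart.

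**Figure D2:**
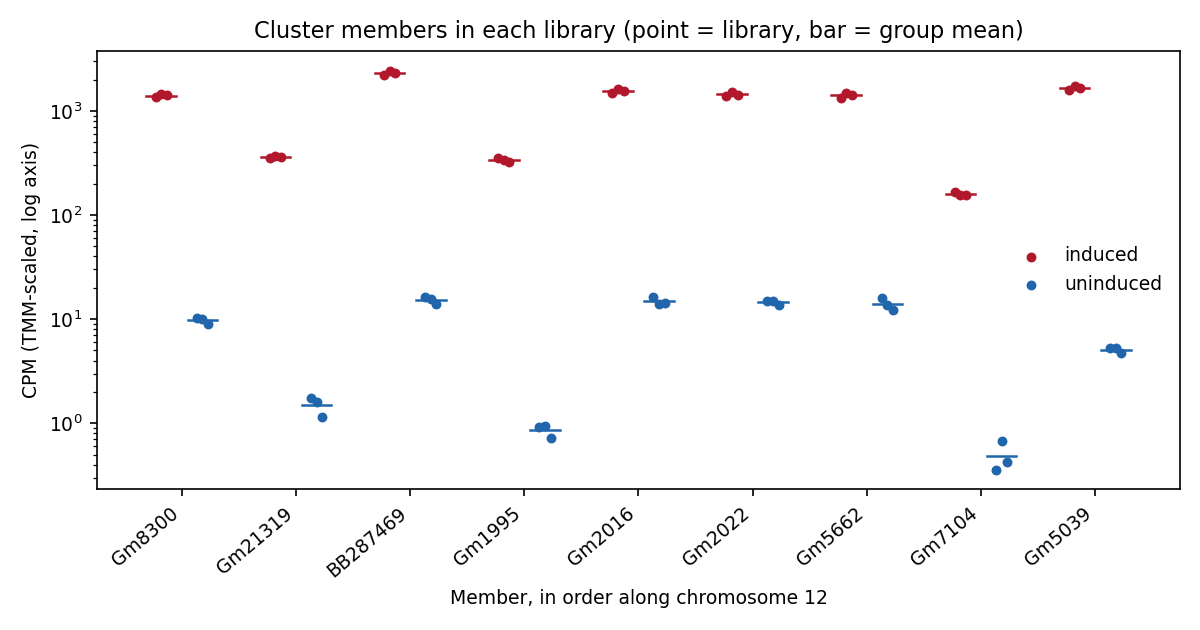
TMM-scaled CPM of each member on a log axis, with members in their order along chromosome 12, 3 induced libraries (left of each pair) and 3 uninduced libraries (right). Points are libraries and bars are group means. Each induced library lies above each uninduced library in all 9 members, with group means in induced cells of 158 CPM for Gm7104 to 2328 CPM for BB287469.

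The 2 REX1 pseudogene members had fold changes among the highest of the cluster. Gm1995 had 6176, 5182 and 5617 counts in induced libraries, against 31, 29 and 22 counts in uninduced libraries, and Gm7104 had 2890, 2422 and 2684 counts in induced libraries, against 12, 21 and 13 counts in uninduced libraries. No induced library came near an uninduced one. Their log2 fold changes were 8.60 ± 0.08 for Gm1995 and 8.34 ± 0.10 for Gm7104 (SE), and the uninduced levels rest on few counts. Rexo1, the REX1 gene itself, named here because of these descriptions, averaged 53.9 ± 1.18 CPM in induced and 43.7 ± 0.985 CPM in uninduced cells (SD, n = 3 each). Its log2 fold change was 0.30 ± 0.05 (SE, edgeR adjusted p = 9.7e-06), but -0.66 when libraries were scaled by their totals alone.

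Summed over the 9 members, the cluster took 0.762% ± 0.0344 of all counts in induced libraries and 0.0107% ± 0.000862 in uninduced libraries (SD, n = 3 each). The sum was 10200, 11122 and 10638 CPM in induced libraries, against 82.4, 76.8 and 70.1 CPM in uninduced libraries, a 139-fold ratio of means. The ratio ran from 124-fold to 159-fold between the nearest and the farthest libraries of the 2 groups. These folds rest on TMM scaling. The log2 ratio of means was 7.12 with it and 6.16 when libraries were scaled by their totals alone. In these bulk libraries, a larger number of cells with the transcripts and more transcript per cell cannot be told apart.

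The members did not keep their proportions. Gm5039 held 15.6% ± 0.122 of the cluster's counts in induced libraries and 6.68% ± 0.261 in uninduced libraries (SD, n = 3 each). Gm1995 likewise held a larger share in induced libraries, 3.17% ± 0.247, than in uninduced libraries, 1.13% ± 0.0960. Gm2016, Gm2022 and Gm5662 had smaller shares in induced libraries, 14.5%, 13.5% and 13.2%, than in uninduced libraries, 19.4%, 19.1% and 18.3%. For Gm8300 the share was 13.2% ± 0.124 in induced and 12.7% ± 0.335 in uninduced libraries, which differs by little more than the spread between libraries. The shares varied by at most 0.247 percentage points (SD) among induced libraries and by up to 1.18 points among uninduced libraries, where the counts were low.

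**Figure D3:**
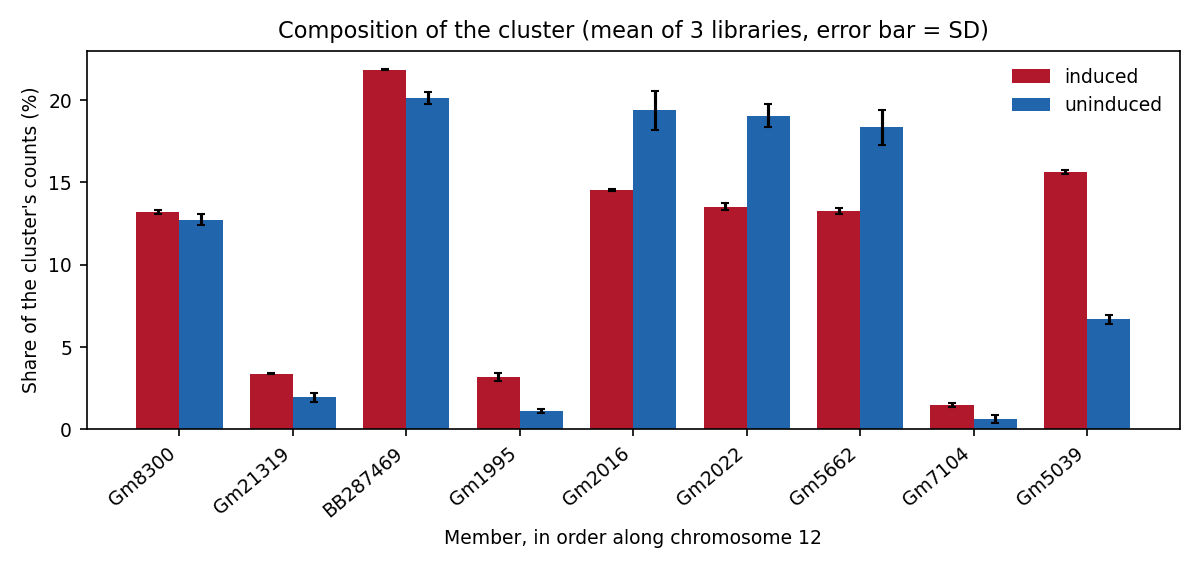
Share of the cluster's counts held by each member, in percent, as the mean of 3 induced libraries (left bar) and 3 uninduced libraries (right bar), with SD as error bars. Gm5039 has 15.6% in induced and 6.68% in uninduced libraries, while Gm2016, Gm2022 and Gm5662 have the smaller share in induced libraries.

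Levels can be set against each other per length for the 6 members with spliced GENCODE models, which have 2 exons and 1766 to 1873 bases. In induced cells BB287469 came first, with 1201 to 1315 CPM per kb in the 3 libraries. Gm5039 with 853 to 933, Gm2016 with 835 to 919, Gm5662 with 723 to 808 and Gm8300 with 719 to 776 CPM per kb followed, and the ranges of Gm5039 and Gm2016, and of Gm5662 and Gm8300, overlap. The place of Gm5039 depends on the gene model, since its RefSeq position spans 1641 bases, fewer than the 1856 of the spliced GENCODE model used here, and a shorter length would put it higher. Gm21319 had 188 to 200 CPM per kb. The single-exon models of the REX1 pseudogenes gave lower levels in induced cells, 124 to 135 CPM per kb for Gm1995 and 60.8 to 65.1 CPM per kb for Gm7104. In uninduced cells the ranges of Gm2016, with 7.84 to 9.27 CPM per kb, BB287469, with 7.56 to 8.81, and Gm5662, with 6.70 to 8.77, overlapped, and Gm5039 had 2.54 to 2.86 CPM per kb. Gm2022 has only a model of its coding part, so no level per length is given for it.

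Copies this similar can share reads, and how the authors' counting treated reads with several matches is not given in the sources used here. Of all 50-base windows in the transcript models, 75.2% of those of Gm2016 occur in Gm5662 and 72.1% of those of Gm5662 occur in Gm2016. Gm2022 and Gm5662 had the same number of counts, 24692, in induced replicate 3, but different counts in the other 5 libraries. By contrast, 86.4% of the windows of Gm21319, 82.7% of those of Gm5039 and 73.4% of those of Gm8300 were found in no other gene's model. The read length is not given, so the share of reads that could be placed in 1 gene was not worked out. BB287469 had 3.39% of its windows to itself, since 94.3% also occur in Gm4027, a gene not analysed here. Gm2022 had 2.85% to itself over its coding-only model. Of its windows, 84.2% occur in another member and 94.0% in a gene that is not a member. The shares depend on the window length. With windows of 100 bases, 33.3% of those of Gm2022, 35.3% of those of Gm2016 and 8.68% of those of BB287469 were found in no other gene's model. The coding parts also share windows with Eif1a, from 0.662% of the windows of Gm21319 to 3.76% of those of Gm5039 among the spliced models. In the coding-only model of Gm2022 the share was 13.7%. Eif1a had 3730 to 3986 counts in uninduced libraries, against 415 to 502 for Gm2022. For the REX1 pseudogenes, 1.65% of the windows of Gm1995 and 0.161% of those of Gm7104 occur in Rexo1. How much shared reads add to each member was not tested.

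The members are not all on 1 strand, and 2 neighbouring pairs mirror each other. The 5 members Gm8300, BB287469, Gm1995, Gm2016 and Gm2022 are on the plus strand, and the 4 members Gm21319, Gm5662, Gm7104 and Gm5039 on the minus strand. Gm1995 ends 8.38 kb before Gm2016, and on the other strand Gm7104 lies 8.37 kb beyond Gm5662, so that a REX1 pseudogene precedes an eIF1A-like copy at nearly the same distance in both. The counterparts also resembled each other in sequence, since Gm2016 and Gm5662 share 99.1% of coding bases and 41.0% of the windows of Gm1995 occur in Gm7104.

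Genes around the cluster that the list did not choose were read from the same fit. Of 29 other genes in the table that overlap the cluster or the 1 Mb on either side, 20 were tested, and 11 were higher and 6 lower in induced cells (edgeR quasi-likelihood test, adjusted p of 0.05). Called genes made up 82.5% of all tested genes, 41.3% higher and 41.2% lower, and the neighbours' median log2 fold change was 0.69. Scaling by library totals alone gave 5 higher and 12 lower.

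The 3 tested genes that lie between members were all higher, by less than the members were. Gm2042, at 87954480 to 87960682, had 622, 670 and 646 counts in induced libraries, against 72, 81 and 94 counts in uninduced libraries. The log2 change was 3.88 ± 0.11 (SE, edgeR adjusted p = 2.4e-19). Gm10436, a Prame-like gene that RefSeq names Pramel51, had 142, 166 and 155 counts in induced libraries, against 15, 16 and 24 in uninduced libraries (3.98 ± 0.19, edgeR adjusted p = 2.1e-15). Gm16381 had 158, 154 and 126 counts in induced libraries, against 22, 8 and 18 in uninduced libraries (4.09 ± 0.21, edgeR adjusted p = 2.3e-14).

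Outside the cluster, 17 neighbours were tested, of which 8 were higher and 6 lower, with a median log2 fold change of 0.07. Snw1 lies 42.0 kb before Gm8300. This gene, which encodes a co-regulator of transcription and splicing, was at 809, 806 and 821 CPM in induced libraries, against 76.7, 74.4 and 76.9 CPM in uninduced libraries. It rose by 3.42 ± 0.04 on the log2 scale (SE, edgeR adjusted p = 2.6e-27). Slirp, whose end overlaps that of Snw1, so that without a stated strand their reads may mix, fell by 0.52 ± 0.08 (edgeR adjusted p = 4.3e-06), as did Adck1, the first tested gene beyond Gm5039, with -0.54 ± 0.08 (edgeR adjusted p = 2.9e-06). Both were named after their values were seen, for their places beside the cluster. Esrrb, a nuclear receptor gene of pluripotent cells at the far edge of the window, had 31, 28 and 19 counts in induced libraries, against 7, 5 and 5 in uninduced libraries (3.08 ± 0.36, edgeR adjusted p = 3.9e-08).

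**Figure D4:**
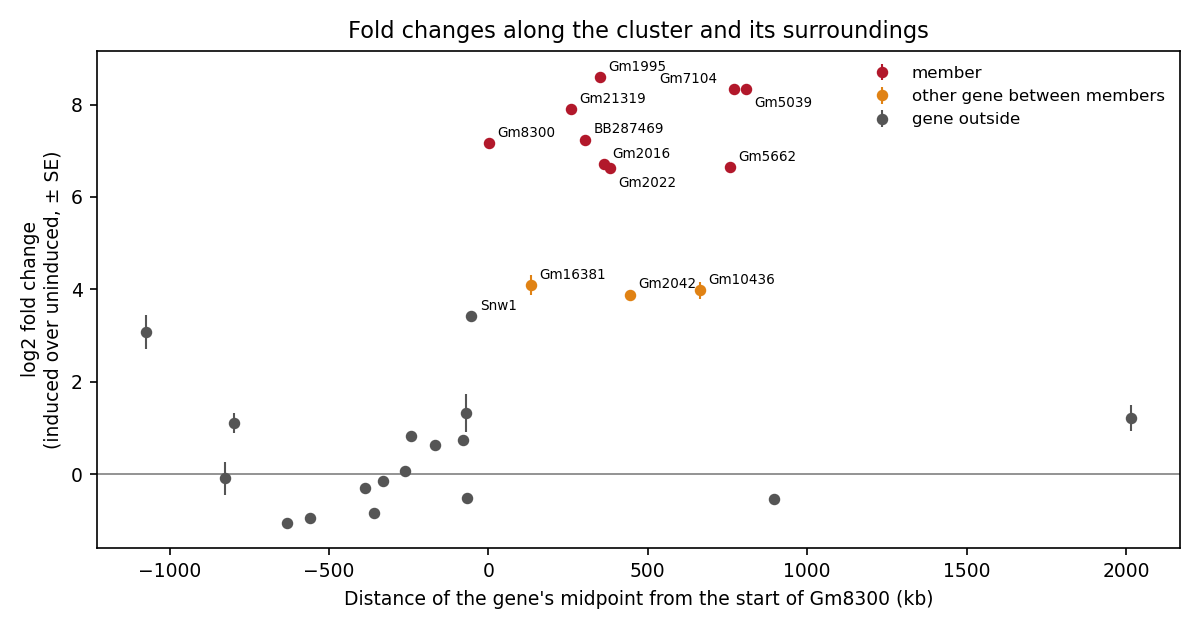
Log2 fold change (induced over uninduced, error bar SE) of members, of other tested genes between members and of tested genes outside, by distance of the gene's midpoint from the start of Gm8300 in kb. Members lie between 6.63 and 8.60, the 3 genes between them near 4, Snw1 at 3.42, and the other genes outside at 3.08 or less.

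The eIF1A genes elsewhere in the genome changed by far less than the cluster. Eif1a averaged 165 ± 5.74 CPM in induced and 121 ± 1.75 CPM in uninduced cells (SD, n = 3 each), or 0.44 ± 0.04 on the log2 scale (SE, edgeR adjusted p = 9.4e-10). Scaled by library totals alone it was at -0.52. Eif1ax was lower, with 73.2 ± 2.69 CPM in induced and 86.6 ± 3.56 CPM in uninduced cells, at -0.24 ± 0.05 (edgeR adjusted p = 7.4e-05). Eif1ad, which encodes a protein with an eIF1A domain, was at 0.08 ± 0.06 and was not called (edgeR adjusted p = 0.23).

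Translation initiation genes as a list showed small changes in both directions. The table held 42 listed genes, of which 41 were tested, and 25 were higher and 10 lower, or 85.4% called, near the 82.5% of all tested genes. Their median log2 fold change was 0.29, and 0 rose and 1 fell at least 2-fold, against 2333 and 1648 of all 12969 tested genes. Scaling by library totals alone gave 0 higher and 39 lower by edgeR, with a median of -0.67, and upper-quartile scaling gave 21 higher and 13 lower.

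Eif5b, which encodes the partner of eIF1A in subunit joining, was at 0.70 ± 0.04 on the log2 scale (SE, edgeR adjusted p = 1.8e-13), and at -0.27 with library size alone. The called partners with the largest rises were Eif3j1, an eIF3 subunit (0.99 ± 0.04), Eif4e, the cap-binding protein (0.98 ± 0.04), and Eif2b2, a subunit of the exchange factor of eIF2 (0.81 ± 0.05). The largest falls were those of Eif1b, a gene for an eIF1 paralogue (-1.25 ± 0.09), the ribosome recycling factor Abce1 (-0.96 ± 0.05) and Denr, a reinitiation factor (-0.75 ± 0.05). With library size alone Eif3j1 and Eif4e were no longer called (0.03 and 0.02, edgeR adjusted p = 0.56 and 0.65) and Eif2b2 was at -0.16. By subgroup, 10 of 13 eIF3 subunit genes were higher and 1 lower, 7 of 8 tested eIF2 and eIF2B genes were higher and 0 lower, and 5 of 9 eIF4 genes were higher and 3 lower by edgeR, beside 41.3% higher and 41.2% lower of all tested genes. Differences between these subgroups and other genes were not tested.

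**Figure D5:**
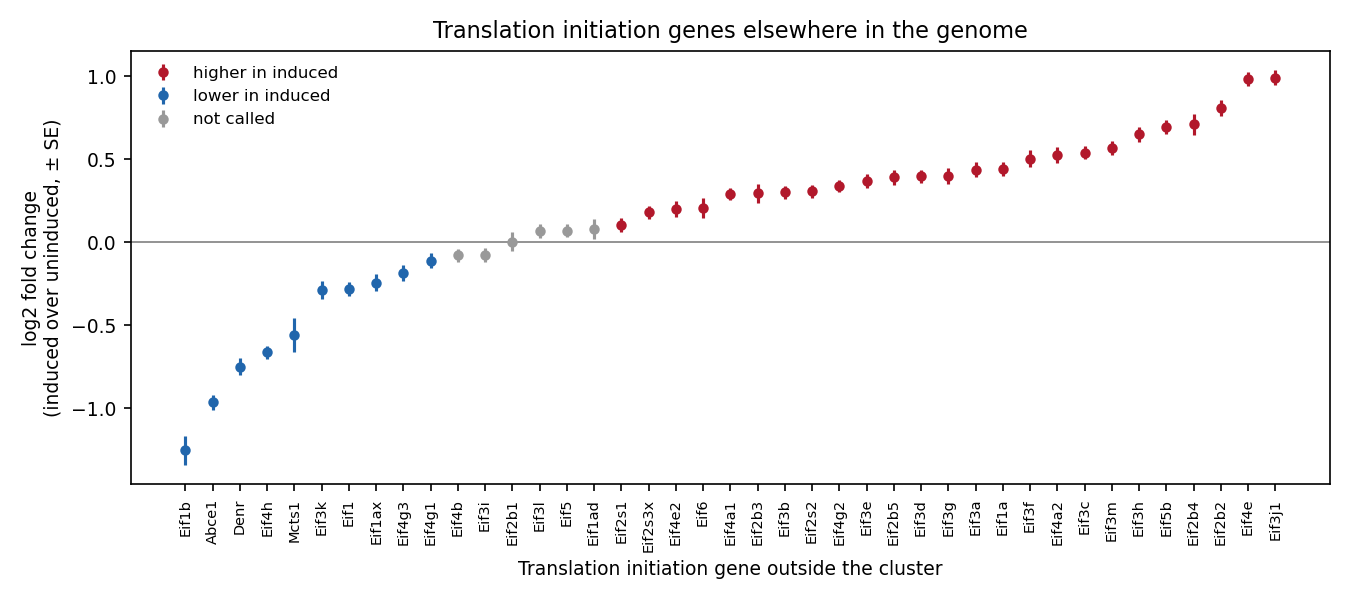
Log2 fold change (induced over uninduced, error bar SE) of the 41 tested translation initiation genes outside the cluster, in rising order, coloured by edgeR call. All lie between -1.25 and 0.99, below the lowest member of the cluster at 6.63.

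Among tested genes outside the cluster, 5 came nearest to the pattern of its sum over the 6 libraries, measured as the root mean square difference of log2(CPM + 0.1) after centring each gene on its own mean. Because the libraries fall into induced and uninduced groups, this measure mostly repeats the contrast on which the members were chosen. The distance was 0.0809 for 4930470H14Rik on chromosome 17, 0.0926 for Gm10354 on chromosome 5, 0.0964 for Ajap1 on chromosome 4, 0.102 for Dcdc2c on chromosome 12 and 0.108 for 1700030L20Rik on chromosome 3. Dcdc2c averaged 1612 ± 150.3 CPM in induced and 13.0 ± 0.960 CPM in uninduced cells (SD, n = 3 each). Gm10354 had 1 count in each uninduced library and Ajap1 had 2, 2 and 1, so the distances of both depend on the added 0.1 CPM. Their fitted log2 fold changes, 8.88 for Gm10354 and 8.36 for Ajap1, were above the 7.12 of the sum. Among the members the same distance ran from 0.0300 for Gm8300 to 0.673 for Gm1995.

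The induced libraries held 21503384 to 24489531 counts each and the uninduced libraries 21897417 to 23985544. Myoblast markers were lower in induced cells, with a summed level of 821 to 856 CPM in induced and 1624 to 1632 CPM in uninduced libraries over 6 markers, of which Pax7 stayed below 0.3 CPM on average in both groups. Markers of other cells were counted at varied levels. The summed level of 4 endothelial markers was 2.05 to 2.41 CPM in induced and 0.0647 to 0.459 CPM in uninduced libraries, and 4 macrophage markers had 1.04 to 1.48 CPM in induced and 0.808 to 1.31 CPM in uninduced libraries. For 4 epithelial markers it was 0.402 to 0.582 CPM in induced and 0.459 to 0.658 CPM in uninduced libraries. Adipocyte markers (4) summed to 37.1 to 41.8 CPM in induced and 44.0 to 48.6 CPM in uninduced libraries, mostly Lpl, and neuronal markers (4) to 101 to 110 CPM in induced and 57.1 to 61.5 CPM in uninduced libraries, mostly Tubb3. The sums hide single markers that moved by more, and those that follow were named after their values were seen. Every tested myoblast marker was called lower, and Des made up most of their sum. Myod1 averaged 37.1 ± 0.896 CPM in induced and 178 ± 4.08 CPM in uninduced cells (SD, n = 3 each, edgeR adjusted p = 1.2e-22). For Cdh15 the means were 45.6 ± 4.13 CPM in induced and 221 ± 6.91 CPM in uninduced cells (edgeR adjusted p = 4.9e-21). Fabp4, an adipocyte marker, averaged 7.06 ± 0.791 CPM in induced and 0.466 ± 0.103 CPM in uninduced cells (SD, n = 3 each, edgeR adjusted p = 7.3e-15). Lpl of the same list went the other way, with 32.0 CPM in induced and 45.3 CPM in uninduced cells (edgeR adjusted p = 6.4e-08). Syt1, a neuronal marker, averaged 5.71 ± 0.490 CPM in induced and 0.451 ± 0.223 CPM in uninduced cells (edgeR adjusted p = 6.2e-13). The endothelial markers Pecam1, with 0.793 CPM in induced and 0.0626 CPM in uninduced cells, and Tek, with 1.33 CPM in induced and 0.168 CPM in uninduced cells, were called as well (edgeR adjusted p = 1e-06 and 3e-06). None of these markers was at 0 in all 6 libraries, but Cdh1 was at 0 in all induced libraries, and Kdr, Adgre1, Adipoq, Plin1, Epcam, Rbfox3 and Snap25 were at 0 in all uninduced libraries. Their part in the results was not tested.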

How the data were processed

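Polyadenylated RNA of 6 cultures, 3 induced and 3 uninduced, was sequenced as barcoded, pooled libraries, per the labels' protocols. Reads were processed with CASAVA, TopHat2 2.0.12 and Bowtie2 2.2.3 on mm10 (the same assembly as GRCm38), per the submitters' processing notes. The authors deposited raw counts of reads per gene. The sources used here do not give the counter, its strand setting, its annotation or how it treated reads with several matches. Libraries of a group differed beyond counting noise (chi-square 2.48 to 7.09 times its degrees of freedom), and p-values measure the spread between cultures of 1 clone.

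Counts were filtered with filterByExpr, which left 12969 genes, scaled with TMM (mean factors 0.716 for induced and 1.40 for uninduced libraries) and tested with edgeR 4.0.16 in R 4.3.3 (quasi-likelihood, robust, group only, two-sided, Benjamini-Hochberg over all tested genes, threshold 0.05). Each standard error was taken from the log2 estimate and its F statistic, as their ratio after a square root of F. Identifiers of 23968 genes matched RefSeq, which gave positions and promoters. Coding sequences and windows of 50 and 100 bases came from GENCODE M21 transcripts. Alternatives were DESeq2 1.42.0, other scalings, no filter, a replicate block, and each library left out.

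The members and lists were chosen with earlier results of these data known. Named genes were all members, Eif1a, Eif1ax, Eif1ad and Eif5b, the 3 largest called rises and 3 largest called falls of the other initiation genes, the 5 largest called changes among neighbours with every tested gene between members, and the 5 genes nearest in pattern. Others are marked as named for another reason.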

Additional observations from a re-analysis of the deposited data

How the results depend on the processing

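The summed cluster was at 7.12 on the log2 scale (induced over uninduced), and at 6.98 with upper-quartile scaling and 6.16 when scaled by library totals alone. These scalings moved the median of all tested genes to -0.16 and -0.97. The DESeq2 median was 0.16, but over all genes with an estimate, without the filter on low counts. It is therefore not a median of the same genes. edgeR without that filter had a median of 0.09. Leaving out 1 library at a time gave 7.06 to 7.18. No 2 members had identical counts in all libraries. All 9 members kept a positive sign in every alternative run, with log2 fold changes of 5.67 to 7.63 with library size alone. Since they were chosen on this contrast, the kept sign is a description and no support. Of 10698 genes called, 3981 changed at least 2-fold. With library size alone the calls split into 1977 higher and 9949 lower, against 5351 and 5347, and with upper-quartile scaling into 4593 and 6191. With library size alone the log2 fold changes of Eif1a (-0.52), Eif1ad (-0.88), Eif5b (-0.27), Eif2b2 (-0.16) and Rexo1 (-0.66) turned negative, and Eif1ad was at -0.065 with upper-quartile scaling. These turns follow from the scaling itself, which shifts all genes. Without 1 library, 10362 to 10691 genes were called, 17 to 19 neighbours and 33 to 35 initiation genes. Same-numbered cultures correlated at 0.02 to 0.06 in their deviations, so the numbers were not taken to pair them, although each library correlated best with its own number. With the replicate block 10813 genes were called, 18 neighbours and 36 initiation genes. Depth limits the uninduced values of some members, as Gm7104 had 12 to 21 counts there.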
